A study of Mus musculus with 12 samples.

Results

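The 10 genes described here control energy metabolism at the level of transcription and were measured in hearts of C57BL/6 mice: the peroxisome proliferator-activated receptors Ppara, Ppard and Pparg, the coactivators Ppargc1a and Ppargc1b, the muscle regulator Perm1, the estrogen-related receptors Esrra, Esrrb and Esrrg, and nuclear respiratory factor 1, Nrf1. They were taken by gene symbol, and all 10 were found among the 24775 genes of the deposited table. PPARs are nuclear receptors that bind fatty acids, pair with retinoid X receptors and switch on genes of fatty acid uptake and oxidation. ERRs bind no known natural hormone and control genes of the citric acid cycle and the respiratory chain, while PGC-1 coactivators bind both kinds of receptor and raise their activity. In the heart, which runs mainly on fatty acids, these factors are known for keeping oxidative capacity high after birth.

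Each heart came from a mouse injected with adeno-associated virus serotype 9 (AAV9), which reaches heart muscle, carrying PRODH or no insert of interest (vector). The PRODH enzyme, proline dehydrogenase, carries out the opening step of proline breakdown in mitochondria, and the labels call its overexpression cardiac-specific without naming a promoter. Mice underwent transverse aortic constriction (TAC), a narrowing of the aorta that imposes pressure overload, or sham surgery 3 weeks after injection, and hearts were collected 4 weeks later. There were 4 groups with 3 libraries each: PRODH TAC, vector TAC, PRODH sham and vector sham. All mice were labelled wild type, and all, controls included, carried AAV9. The sources used here give neither age nor sex, nor do they say whether a library is 1 mouse or a pool, so p-values measure the spread between these libraries, which may be partly technical. The stated aims were TAC against sham in vector mice and PRODH against vector after TAC.

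Libraries held 10.1 to 15.2 M reads. Values are normalized reads, the deposited reads per gene divided by 1 size factor per library. Prodh was at 964, 1319.9 and 1021 in PRODH TAC, 245, 172 and 159.6 in vector TAC, 965, 497 and 1072 in PRODH sham and 334, 292 and 379 in vector sham hearts, so every PRODH library lay above every vector library. The labels do not name the species of the PRODH insert, so reads from the insert may be only partly counted in these values and in the Prodh differences given later. Ventricular myocyte markers summed to 683752 to 764159 normalized reads in PRODH TAC, 512973 to 651277 in vector TAC, 794782 to 862666 in PRODH sham and 640006 to 834563 in vector sham hearts. Of the adipocyte markers, Lep, Plin1 and Cidec had a median of 0, and so had Ucp1, Elovl3, Otop1 and Zic1 of the brown adipocyte markers. The other listed fat markers were read. All 8 adipocyte markers summed to 8209 to 9117 normalized reads in PRODH TAC and 10217 to 16046 in vector TAC hearts. In sham hearts their sums were 10162 to 11440 with PRODH and 8038 to 16000 with the vector. The 5 brown adipocyte markers summed to 318 to 400 in PRODH TAC and 344 to 506 in vector TAC hearts. Their sums in sham hearts were 387 to 417 with PRODH and 332 to 343 with the vector. PRODH sham library 2 and vector TAC library 1 stood apart in mesothelial markers, the genes of the heart's outer lining, with sums of 470 and 451, against 85 to 244 in the other libraries.

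Promoter sequences, 250 bases before the transcription start, were available for 9 of the 10 genes, with 16 starts in all (RefSeq, GRCm38.p6). The 4 printed here belong to a coactivator, a fatty acid receptor, the most abundant ERR and the gene with the highest level per length. Capitals mark letters that match 1 of the motifs searched on both strands: the ERR element TNAAGGTCA, the nuclear respiratory factor core GCATGCGC, the cyclic AMP element core TGACGT, and the nuclear receptor core AGGTCA, which lies within the ERR element. A direct repeat of AGGTCA with 1 base between its copies, the usual PPAR element, was searched as well. The letters of the respiratory factor and cyclic AMP cores were settled after the sequences had been read.
Ppargc1a, chr5:51567726-51567975, minus strand: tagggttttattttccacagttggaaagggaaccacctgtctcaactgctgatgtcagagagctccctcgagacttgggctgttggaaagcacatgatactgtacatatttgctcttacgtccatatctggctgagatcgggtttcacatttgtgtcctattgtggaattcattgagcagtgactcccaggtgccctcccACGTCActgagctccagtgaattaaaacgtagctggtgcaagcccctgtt
Ppara, chr15:85735526-85735775, plus strand: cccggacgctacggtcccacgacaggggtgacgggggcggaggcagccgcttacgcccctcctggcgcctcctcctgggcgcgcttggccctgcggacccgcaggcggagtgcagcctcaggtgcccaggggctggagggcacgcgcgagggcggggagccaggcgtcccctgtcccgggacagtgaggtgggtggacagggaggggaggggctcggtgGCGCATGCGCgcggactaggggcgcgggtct
Esrra, chr19:6921809-6922058, minus strand: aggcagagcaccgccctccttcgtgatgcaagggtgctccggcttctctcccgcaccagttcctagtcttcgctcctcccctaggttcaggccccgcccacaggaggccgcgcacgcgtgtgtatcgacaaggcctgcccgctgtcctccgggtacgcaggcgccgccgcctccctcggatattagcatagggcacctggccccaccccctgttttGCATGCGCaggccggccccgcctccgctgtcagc
Perm1, chr4:156215677-156215926, plus strand: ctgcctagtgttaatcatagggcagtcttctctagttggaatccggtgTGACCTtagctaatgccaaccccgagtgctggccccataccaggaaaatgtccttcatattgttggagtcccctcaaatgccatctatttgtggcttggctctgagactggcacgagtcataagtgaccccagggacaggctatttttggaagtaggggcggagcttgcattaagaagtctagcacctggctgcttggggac

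In Ppargc1a the cyclic AMP core began 44 bases before the start on the opposite strand, and 6.47% of the 32851 mouse promoters of the same length held these letters. Ppara carried the respiratory factor core 21 bases before the start on its own strand, overlapping a copy at 23 bases on the opposite strand, and Esrra carried it 26 bases before the start on its own strand. That core was present in 2.26% of all promoters. The AGGTCA core stood 196 bases before the Perm1 start on the opposite strand and at 22 and 3 bases before the first and second Pparg starts, against 14% of all promoters. None of the 16 windows held the ERR element or the direct repeat, which 1.14% and 0.0335% of all promoters held. An absent match says only that these letters are not in this window.

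Levels per kilobase of exon, averaged over the 12 libraries, ran from 993 normalized reads for Perm1 to 17.8 for Nrf1. Esrra followed Perm1 at 561, then Ppargc1a at 174 and Ppara at 105. Pparg at 86.5, Esrrg at 80.1, Esrrb at 65.7 and Ppard at 63.9 lay close together, and Ppargc1b was at 40.2. Among the ERRs, Esrra was thus the most abundant, and among the PPARs Ppara. Counts behind a value were lowest for Ppargc1b, with 61 reads in one vector TAC library, and no gene had fewer than 61 reads in any library, so all 10 passed the filter on low values.

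**Figure D1:**
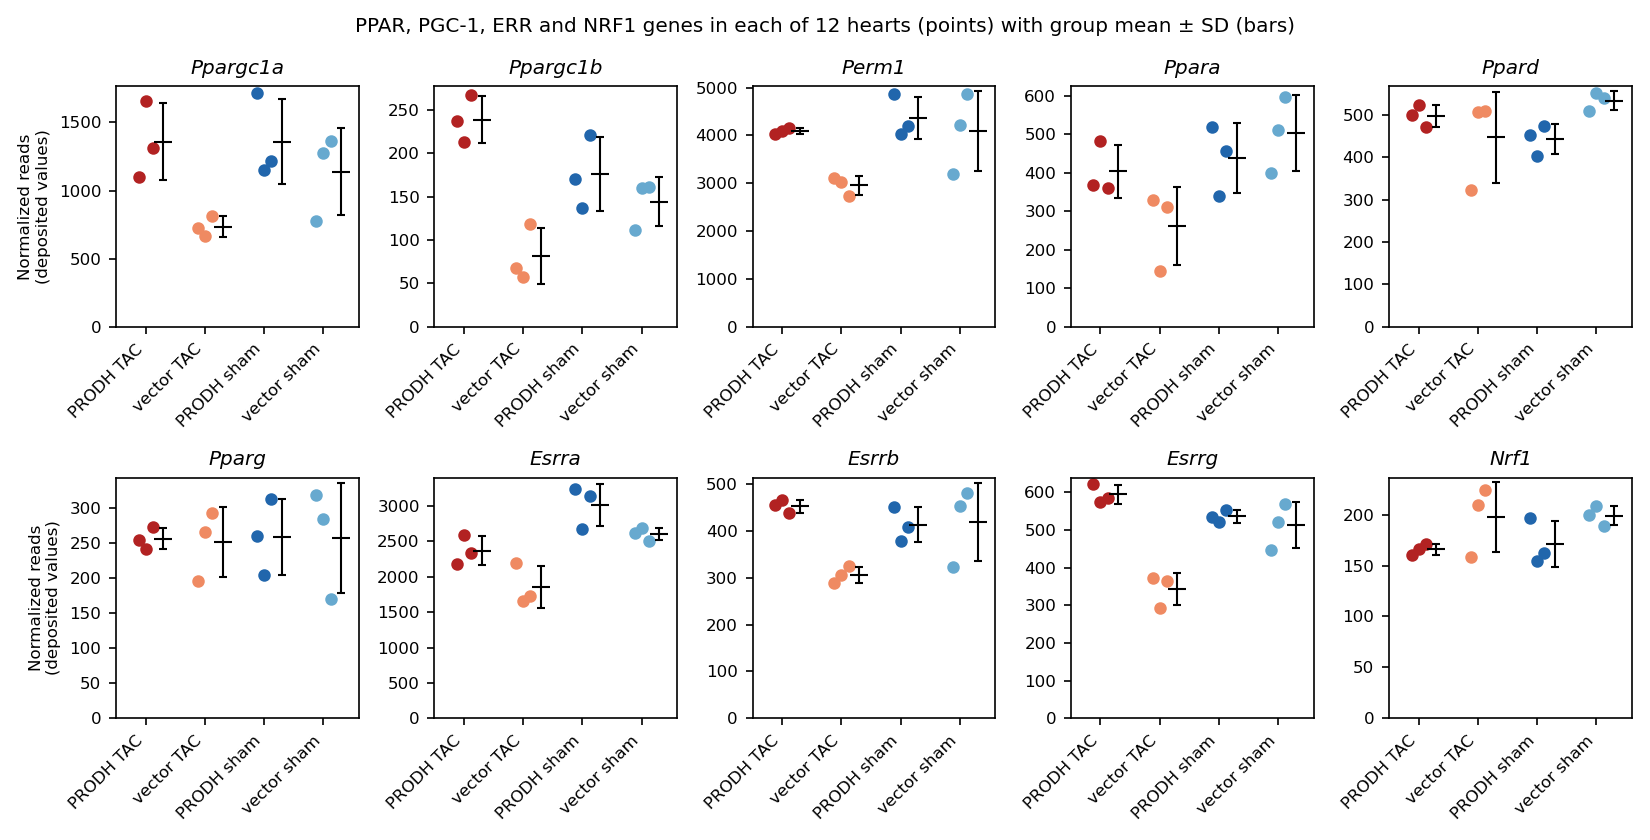
Normalized reads (y axis, from 0) of the 10 genes in PRODH TAC, vector TAC, PRODH sham and vector sham hearts, with 1 point per library and bars for the group mean ± SD (n = 3). For Ppargc1b, Ppargc1a, Perm1, Ppara, Esrrb and Esrrg all PRODH TAC points lie above all vector TAC points, as for 10.6% of all genes tested. PRODH TAC and vector TAC points overlap for Esrra, Ppard, Pparg and Nrf1.

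After pressure overload with the vector, 4 of the 10 regulators fell and none rose: the fatty acid receptor Ppara, the receptors Esrra and Esrrg, and the coactivator Ppargc1b. In hearts given PRODH and the same surgery, 4 regulators were higher than with the vector and none lower: Ppargc1b, Ppargc1a, Esrrg and Esrrb. Nrf1 and Pparg passed in neither comparison. Over all 21173 genes tested, limma at a Benjamini-Hochberg adjusted p under 0.05 called 7.77% of genes for TAC against sham in vector hearts (4.05% lower) and 3.92% for PRODH against vector in TAC hearts (2.12% higher). Among genes with a mean of at least 100 normalized reads, a level all 10 regulators reach, the shares called were 12.3% and 6.6%. The median log2 difference of the 10 genes was -0.47 for TAC against sham and 0.52 for PRODH against vector, beside 0.02 and -0.01 for all genes tested. Both comparisons share the vector TAC libraries, so a low or high value there moves both in opposite directions.

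Groups without overlap were counted as well. Esrra, Esrrg, Perm1 and Ppara were lower in every vector TAC library than in every vector sham library, which held for 10% of all genes tested. Ppargc1a, Ppargc1b, Perm1, Ppara, Esrrb and Esrrg were higher in every PRODH TAC library than in every vector TAC library, which held for 10.6% of all genes. Fits on only the 2 groups compared called 0 regulators in both comparisons, and 320 and 108 genes of all. Leaving out 1 library gave counts of 0 to 6 after TAC, beside 821 to 3455 genes of all (1645 with all libraries). The count was 0 without vector sham library 3 (1094 genes of all) or vector TAC library 2 (821) and 6 without vector sham library 1 (1475). With PRODH the counts were 2 to 7, beside 247 to 2754 genes of all (831 with all libraries). The count was 7 without vector TAC library 1, where calls over all genes were also at their highest, 2754. Without vector TAC library 1 and PRODH sham library 2 together, 5 regulators were called lower after TAC and 7 higher with PRODH, beside 3602 and 2887 genes of all.

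**Figure D2:**
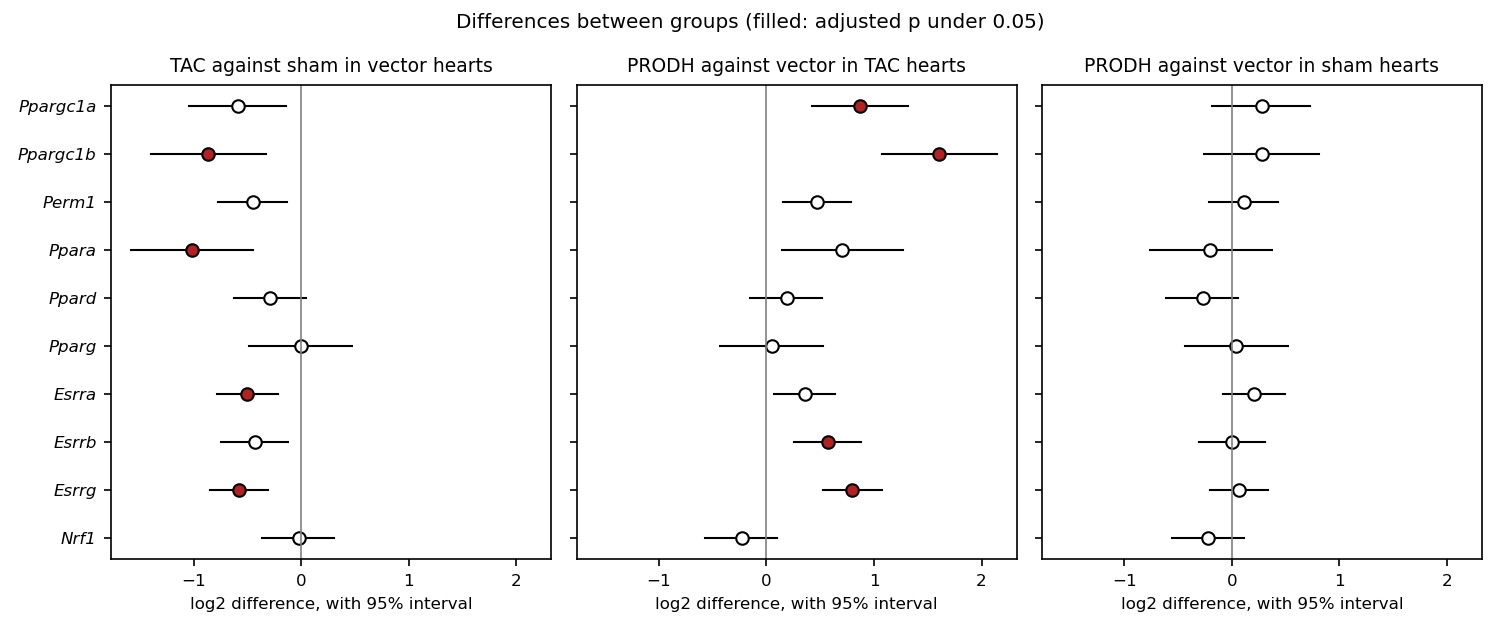
Log2 differences (x axis) with 95% confidence intervals from limma for each gene in 3 comparisons, n = 3 libraries per group, filled where the adjusted p is under 0.05. Differences lie at or left of 0 for TAC against sham in vector hearts, mostly right of 0 for PRODH against vector in TAC hearts, and within 0.28 of 0 for PRODH against vector in sham hearts.

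The coactivators showed the widest differences between PRODH and vector hearts. Ppargc1b, which encodes PGC-1 beta, a coactivator of PPARs and ERRs, was at 237, 213 and 267 normalized reads in PRODH TAC, 68.0, 58.0 and 118.5 in vector TAC, 170.7, 137 and 221 in PRODH sham and 112, 160.3 and 160.8 in vector sham hearts. Every PRODH TAC library lay above every vector TAC library and every vector sham library. The log2 difference was 1.60 ± 0.25 for PRODH against vector in TAC hearts (limma adjusted p = 0.003), a 3.04-fold higher level, and it stayed called without any single library, at 1.40 to 1.91. TAC against sham in vector hearts gave -0.87 ± 0.25 (limma adjusted p = 0.048). That call was lost without either of vector sham libraries 2 and 3, PRODH sham libraries 1 and 3, vector TAC libraries 1 and 2 or any PRODH TAC library, at -0.87 to -0.66.

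Ppargc1a encodes PGC-1 alpha, the inducible coactivator that drives mitochondrial biogenesis. Its values were 1103, 1659 and 1313 in PRODH TAC, 729, 664 and 815 in vector TAC, 1715, 1150.1 and 1214 in PRODH sham and 773, 1278 and 1363 in vector sham hearts. One vector sham library, library 1, lay within the vector TAC range, and the PRODH TAC and vector TAC groups did not overlap. PRODH exceeded vector in TAC hearts by 0.87 ± 0.21 (limma adjusted p = 0.034). The call, though not the direction, was lost without vector TAC library 2 (0.80) or 3 (0.94) or PRODH TAC library 2 (0.71) or 3 (0.88). TAC against sham in vector hearts gave -0.59 ± 0.21 (limma adjusted p = 0.12), and -0.85 without vector sham library 1 (limma adjusted p = 0.015).

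Perm1, a striated muscle gene induced by PGC-1 and ERR and needed for their oxidative targets, varied little within the PRODH TAC group. It was at 4021, 4084 and 4152 in PRODH TAC, 3114, 3017 and 2732 in vector TAC, 4864, 4029.8 and 4205 in PRODH sham and 3201, 4211 and 4856 in vector sham hearts. All vector TAC libraries lay below the other 9, yet neither difference passed: 0.47 ± 0.15 for PRODH against vector in TAC hearts (limma adjusted p = 0.1) and -0.45 ± 0.15 for TAC against sham in vector hearts (limma adjusted p = 0.09). Without vector TAC library 1 both passed, at 0.51 and -0.49, and without vector sham library 1 both passed as well, at 0.47 and -0.62.

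Among the ERRs, Esrrg, an isoform enriched in tissues of high energy demand, had the clearest separation. Its values were 623, 575 and 586 in PRODH TAC, 373, 294 and 365 in vector TAC, 535, 521 and 555 in PRODH sham and 448, 523 and 569 in vector sham hearts. The 3 vector TAC libraries lay below all 9 others, and the 3 PRODH TAC libraries above all 9 others. The share of all genes with such a separation from 9 libraries was not counted, here and for Perm1 and Ppara. PRODH exceeded vector in TAC hearts by 0.80 ± 0.13 (limma adjusted p = 0.0032), a call kept without any single library at 0.69 to 0.86. TAC against sham in vector hearts gave -0.58 ± 0.13 (limma adjusted p = 0.011), a call lost without vector sham library 3 (-0.50) or vector TAC library 2 (-0.47).

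Esrra, the abundant ERR that acts with PGC-1 on genes of oxidative phosphorylation, was at 2182, 2589 and 2336 in PRODH TAC, 2194, 1657 and 1726 in vector TAC, 3239.5, 2679 and 3138 in PRODH sham and 2613, 2687 and 2512.5 in vector sham hearts. All vector TAC libraries lay below all vector sham libraries, with vector TAC library 1 closest to them, and all PRODH TAC libraries lay below all PRODH sham libraries. Esrra fell by 0.50 on the log2 scale after TAC in vector hearts (SE 0.13, limma adjusted p = 0.033). That call was lost without any 1 of the vector sham libraries (-0.49, -0.47 and -0.52), without vector TAC library 2 (-0.42) or 3 (-0.45) and without PRODH sham or PRODH TAC library 3 (both -0.50). PRODH against vector in TAC hearts gave 0.36 ± 0.13 (limma adjusted p = 0.17), and 0.48 without vector TAC library 1, where it passed (limma adjusted p = 0.0088).

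Esrrb, the third ERR, best known from pluripotent stem cells and the placenta, was at 455, 466 and 438 in PRODH TAC, 288, 305.5 and 324 in vector TAC, 452, 377.5 and 409 in PRODH sham and 323, 454 and 480.2 in vector sham hearts. Vector TAC library 3 overlapped vector sham library 1, and PRODH TAC did not overlap vector TAC. Esrrb rose by 0.57 ± 0.15 with PRODH in TAC hearts (limma adjusted p = 0.042), a call kept in 4 of the 12 fits that left out 1 library, at 0.52 to 0.61 over all 12. It was lost without vector sham library 2, PRODH sham libraries 1 or 3, vector TAC libraries 2 or 3, or any PRODH TAC library. TAC against sham in vector hearts gave -0.43 ± 0.15 (limma adjusted p = 0.091) for Esrrb, and -0.61 without vector sham library 1 (limma adjusted p = 0.0089).

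Of the PPARs, Ppara changed. Ppara is the main fatty acid receptor of heart muscle, and it was at 369, 483 and 360.1 normalized reads in PRODH TAC, 329, 145 and 311 in vector TAC, 520.0, 340.0 and 457 in PRODH sham and 400.0, 512 and 598 in vector sham hearts. Vector TAC library 2 was the lowest library by far, and all 3 vector TAC libraries lay below the other 9. TAC lowered Ppara in vector hearts by a log2 difference of -1.01 ± 0.26 (limma adjusted p = 0.029), a level of 0.496 times that of sham hearts. The call was lost without vector TAC library 2 (-0.63), where the drop is over 1.5 times smaller on the log2 scale, and without vector sham library 2 (-0.99) or 3 (-0.88). PRODH against vector in TAC hearts gave 0.70 ± 0.26 (limma adjusted p = 0.17), which became 0.91 without vector TAC library 1, where it passed (limma adjusted p = 0.026), and 0.32 without vector TAC library 2, where it did not (limma adjusted p = 0.58).

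Ppard, the PPAR present in most tissues, had 499, 524 and 471 in PRODH TAC, 323.5, 508 and 509 in vector TAC, 452, 403 and 473 in PRODH sham and 508, 552 and 540.1 in vector sham hearts. Apart from vector TAC library 1, the TAC libraries overlapped. Its differences were 0.19 ± 0.16 for PRODH against vector in TAC hearts (limma adjusted p = 0.63) and -0.29 ± 0.16 for TAC against sham in vector hearts (limma adjusted p = 0.34). Without vector TAC library 1 the Ppard difference for PRODH turned to -0.03 and that for TAC shrank to -0.07, while it was 0.29 and 0.30 for PRODH without vector TAC library 2 or 3. With the length and GC trend removed, the TAC difference of Ppard passed, at -0.39 (limma adjusted p = 0.033).

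Pparg, the PPAR of fat cells, was at 254, 242 and 272 in PRODH TAC, 195, 265 and 292.5 in vector TAC, 259, 204 and 312 in PRODH sham and 318, 283 and 169 in vector sham hearts. All 4 groups overlapped, and every difference between groups was under 0.1 in size on the log2 scale. Nrf1 encodes nuclear respiratory factor 1, which activates nuclear genes of mitochondria, and is not the gene Nfe2l1 that shares the abbreviation. It was at 161, 166 and 171 in PRODH TAC, 158, 209.6 and 225 in vector TAC, 197, 154.5 and 162 in PRODH sham and 199.5, 208 and 189 in vector sham hearts. PRODH TAC lay within the range of vector TAC, with a log2 difference of -0.23 ± 0.16 (limma adjusted p = 0.52), which was -0.39 without vector TAC library 1 and -0.13 without vector TAC library 3.

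In sham hearts none of the 10 regulators passed the test between PRODH and vector, and limma called 0% of all genes. At an unadjusted p under 0.05 it found 871 genes, none of them among the 10, and DESeq2 called 7 genes, with no regulator among them. The 10 log2 differences ran from -0.27 ± 0.16 for Ppard to 0.28 ± 0.25 for Ppargc1b and 0.28 ± 0.21 for Ppargc1a. For Ppargc1b the 95% confidence interval ran from -0.26 to 0.81. Ppard alone had no overlap, with all PRODH sham libraries below all vector sham libraries, as in 4.89% of all genes tested. Prodh itself differed here by 1.26 ± 0.24 (limma adjusted p = 0.62), against 2.52 ± 0.24 in TAC hearts (limma adjusted p = 1.7e-04).

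TAC against sham in PRODH hearts called none of the 10 and 0.0236% of all genes, with edgeR and DESeq2 calling none of the 10 as well. At an unadjusted p under 0.05 limma found 1816 genes, Esrra being the only regulator. Esrra was lower in all 3 PRODH TAC libraries than in all 3 PRODH sham libraries, with a log2 difference of -0.35 ± 0.13 (limma adjusted p = 0.5), and 11.4% of all genes were likewise wholly lower. Esrrg was higher in all 3, as were 10.4% of all genes. Ppargc1b gave 0.46 ± 0.25 (limma adjusted p = 0.62), Esrrg 0.15 ± 0.13 (limma adjusted p = 0.75) and Ppara -0.11 ± 0.26 (limma adjusted p = 0.92).

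The difference between the TAC responses, PRODH minus vector, asks whether pressure overload moved a gene differently under the 2 viruses. It called none of the 10 regulators and 0.104% of all genes. The estimates were 1.33 ± 0.36 for Ppargc1b (limma adjusted p = 0.22), 0.72 ± 0.18 for Esrrg (limma adjusted p = 0.19), 0.90 ± 0.37 for Ppara (limma adjusted p = 0.52) and 0.57 ± 0.21 for Esrrb (limma adjusted p = 0.42). At an unadjusted p under 0.05 limma found 1821 genes, these 4 regulators among them, while edgeR called none of the 10 and DESeq2 called Esrrg. A call for TAC in vector hearts and its absence in PRODH hearts does not by itself show that the responses differ. Esrrg passed without vector TAC library 1, at 0.79 (limma adjusted p = 0.022).

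**Figure D3:**
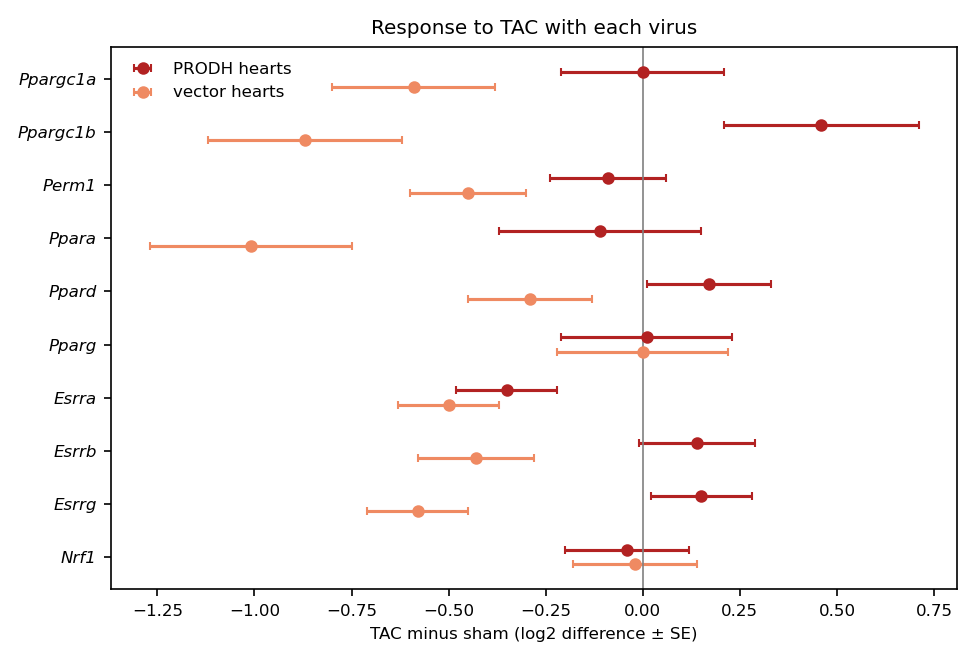
Log2 difference between TAC and sham hearts ± SE (x axis) for each gene in PRODH hearts and in vector hearts, from limma with n = 3 libraries per group. Estimates for vector hearts lie between -1.01 and 0.00 and those for PRODH hearts between -0.35 and 0.46, and the bars of both lie closest for Pparg, Nrf1 and Esrra.

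The order of the group means was tested with the 2 remaining pairs of groups. PRODH TAC against vector sham called none of the 10 and 0.0897% of all genes, the widest difference being 0.74 ± 0.25 for Ppargc1b (limma adjusted p = 0.55). Vector TAC against PRODH sham called 5 regulators lower, Ppargc1b (-1.14 ± 0.25), Ppargc1a (-0.87 ± 0.21), Esrra (-0.71 ± 0.13), Esrrg (-0.65 ± 0.13) and Perm1 (-0.56 ± 0.15), beside 12.5% of all genes. For Ppargc1b and Esrrg the means ran PRODH TAC, PRODH sham, vector sham and vector TAC from high to low, and no pair among the upper 3 passed. For Esrra they ran PRODH sham, vector sham, PRODH TAC and vector TAC, and again no pair among the upper 3 passed. The lowest step of that order, PRODH TAC against vector TAC, did not pass either (0.36 ± 0.13, limma adjusted p = 0.17). For Ppara the means ran vector sham, PRODH sham, PRODH TAC and vector TAC, with only the highest and the lowest group differing by the test.

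In both main comparisons the median of the myocyte markers lay on the same side of 0 as that of the regulators. Of 10 ventricular myocyte markers, 2 fell after TAC in vector hearts and were higher with PRODH in TAC hearts. They were Pln and Ryr2, which control calcium release and uptake, named after their values were seen. The other 8 were not called in either comparison. Estimates of the 10 markers ran from -0.86 to 0.29 after TAC, with 9 below 0 and 1 above it, and from 0.22 to 0.90 with PRODH. The list medians were -0.42 and 0.44. Of all genes, 4.05% were called lower after TAC and 2.12% higher with PRODH. Of 8 fibroblast markers 4 rose after TAC in vector hearts and 3 were lower with PRODH in TAC hearts, beside 3.72% and 1.8% of all genes. The fibroblast marker sums were 17040 to 18866 in PRODH TAC, 29521 to 51882 in vector TAC, 15071 to 19350 in PRODH sham and 17124 to 18900 in vector sham hearts. The part of myocyte and fibroblast markers in the regulators' differences was not tested, and in bulk heart tissue fewer myocytes and less RNA per myocyte cannot be told apart. Atrial myocyte markers summed to only 17 to 97 normalized reads in PRODH TAC and 28 to 47 in vector TAC hearts. They summed to 34 to 58 in PRODH sham and 13 to 25 in vector sham hearts. The median regulator stood at 0.00 to 0.06 in PRODH TAC, -0.54 to -0.39 in vector TAC, -0.09 to 0.10 in PRODH sham and -0.25 to 0.16 in vector sham libraries, as log2 differences from the vector sham mean. The median myocyte marker stood at -0.11 to 0.04 in PRODH TAC, -0.60 to -0.32 in vector TAC, 0.15 to 0.25 in PRODH sham and -0.14 to 0.21 in vector sham libraries.

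Low values of several regulators fell together in single libraries. PRODH sham library 2 was the lowest of its group for 10 of 10 regulators, and vector sham library 1 for 7 of 10. How many of all genes were lowest in these libraries was not counted, so the counts cannot be read as particular to the regulators. The median myocyte marker was also lowest of its group in PRODH sham library 2 (0.15) and in vector sham library 1 (-0.14). PRODH sham library 2 is also 1 of the 2 libraries with high mesothelial markers, whose part was not tested. Without it the counts of regulators called in the 2 main comparisons were 4 and 4, the same as with it. Without the other such library, vector TAC library 1, they were 4 and 7. That library also differed most from the others of its group, with a chi-square per degree of freedom of 95.44 and 90.15 against them, while the other two gave 9.53 against each other.

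**Figure D4:**
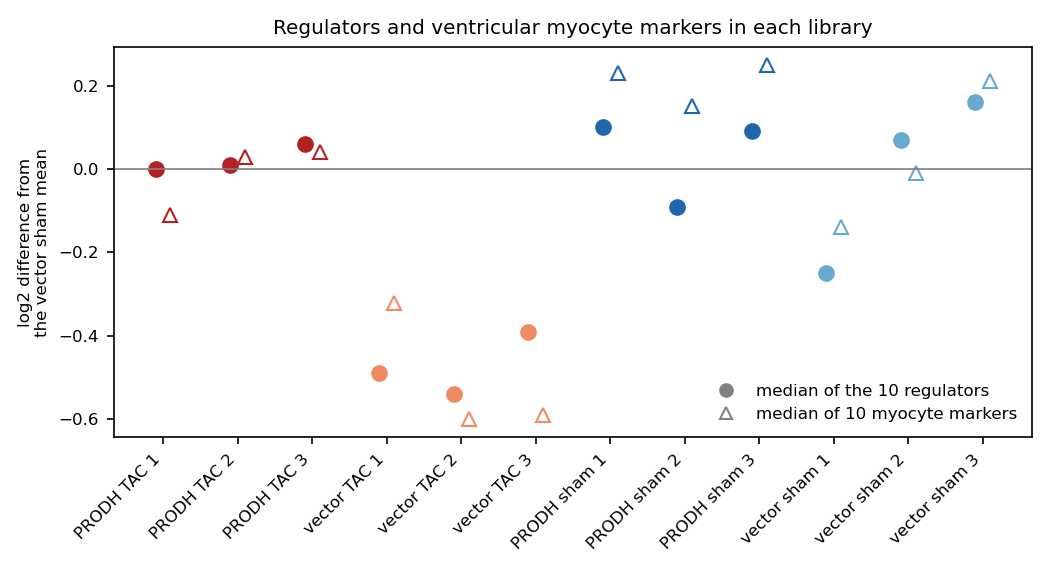
Median log2 difference from the vector sham mean (y axis) of the 10 regulators (circles) and of 10 ventricular myocyte markers (triangles) in each of the 12 libraries (x axis). In the 3 vector TAC libraries the regulators lie at -0.54 to -0.39 and the markers at -0.60 to -0.32, below the other 9 libraries.

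For each regulator called in 1 or both of the main comparisons, the genes with the most similar profile over the 12 libraries were taken, by Pearson's r of log2(value + 1) among genes with a mean of at least 100. The coefficients describe libraries that share group means, depth and cell makeup. Nearest to Esrra were Ndufv1, a subunit of respiratory complex I (r = 0.99), Acaa2, the thiolase that ends fatty acid oxidation (r = 0.99), and Etfa, which passes its electrons on (r = 0.98). Esrrg came closest to Scn4a, a voltage-gated sodium channel (r = 0.98), Mmab, an enzyme of vitamin B12 metabolism (r = 0.97), and Opa1, which fuses inner mitochondrial membranes (r = 0.97). Nearest to Esrrb were Rab14, a membrane traffic GTPase, Cacna1c, the pore of the cardiac calcium channel, and Arfgef1 (each r = 0.97). Ppargc1a was closest to the transcription factor Meis1 (r = 0.96), the potassium channel gene Kcnj11 (r = 0.96) and the splicing factor Rbm20 (r = 0.95). Ppargc1b came nearest to Prox1, a homeobox factor (r = 0.95), Irf2bp2 and Magi3 (both r = 0.93), and Ppara to Ptgr2 (r = 0.95), Fem1a (r = 0.93) and Ubxn2a (r = 0.92).

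Of 30 listed PPAR targets in fatty acid uptake and oxidation, 15 fell and none rose for TAC against sham in vector hearts. Over all genes tested 4.05% were called lower. The 30 targets had a median of -0.70, with 24 estimates below 0 and 6 above it. The smallest p-values belonged to the acyl-CoA thioesterases Acot1 (-2.37 ± 0.29) and Acot2 (-0.91 ± 0.15), the fatty acid transporter Slc27a1 (-1.02 ± 0.18) and the acyl-CoA synthetase Acsl1 (-0.89 ± 0.16), all kept without any single library. Acot1 was at 105, 143 and 126 in PRODH TAC, 64.7, 24.5 and 26.7 in vector TAC, 344, 252 and 358 in PRODH sham and 176, 186.5 and 191 in vector sham hearts. Both TAC groups lay below both sham groups, and PRODH TAC lay above vector TAC. Acot1 and Acot2 are close paralogs whose reads the authors' counting, a step the labels do not describe, could have split.

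With PRODH in TAC hearts 9 of the 30 PPAR targets rose and none fell, beside 2.12% of all genes called higher. They were led by Acot1 (1.80 ± 0.29), Acot2 (0.89 ± 0.15), Slc27a1 (0.91 ± 0.18) and Acsl1 (0.76 ± 0.16). The list median was 0.58, with 25 estimates above 0 and 5 below it, down to -1.34. Angptl4, chosen after its values were seen, averaged 79.2 in PRODH TAC and 197.7 in vector TAC hearts. Its sham means were 95.2 with PRODH and 91.7 with the vector. Fits on only the 2 groups compared called 1 of the 30 targets higher with PRODH and 1 lower after TAC. Of all genes these fits called 108 and 320. Leaving out 1 library gave 2 to 18 targets called higher with PRODH, the lowest without PRODH TAC library 2 or 3 and the highest without vector TAC library 1. The count of targets called lower for TAC in vector hearts ran from 7 without vector TAC library 2 to 18 without vector TAC library 1. In the fit without vector TAC library 1, which called 2754 and 3455 genes of all, 2 further targets passed in the opposite direction, named here after their values were seen. They were Cpt1a, the carnitine palmitoyltransferase best known from liver, at -0.43 for PRODH and 0.39 for TAC, and Fgf21, a secreted metabolic hormone, at -2.05 and 2.05. Fgf21 was near the floor, at 0.0, 3.7 and 4.8 normalized reads in vector TAC and 0.0 or 1.0 in every other library. With all libraries its limma adjusted p was 0.35 for PRODH and 0.3 for TAC. Acot1 and Acot2 were called for PRODH in all 12 fits that left out 1 library. Slc27a1 was lost without PRODH TAC library 2 or 3, and Acsl1 without vector TAC library 2 or any PRODH TAC library.

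Of 16 ERR targets, most were genes of the citric acid cycle and respiratory chain, but Ckmt2, Slc25a4, Mfn2 and Vegfa were listed too. After TAC in vector hearts 5 fell and none rose, with a median of -0.54, beside 4.05% of all genes called lower. Those 5 included Idh3a (-0.77 ± 0.15), a subunit of isocitrate dehydrogenase, Ndufs1 (-0.76 ± 0.16), a complex I subunit, Suclg1 (-0.74 ± 0.16), a subunit of succinyl-CoA ligase, and Cs (-0.73 ± 0.18), citrate synthase. Idh3a was at 6920.0, 7084 and 7267.5 in PRODH TAC, 5916, 4280.2 and 4492 in vector TAC, 9719.6, 9397.5 and 9322 in PRODH sham and 8007, 9024 and 7828.5 in vector sham hearts. Its groups did not overlap, and both TAC groups lay below both sham groups. None of the 16 passed for PRODH against vector in TAC hearts, where all 16 estimates were above 0 and the median was 0.39, and 10 passed without vector TAC library 1, where 2754 genes of all did. Leaving out 1 library gave 2 to 12 falls after TAC, the lowest without vector sham library 2 or vector TAC library 2 and the highest without vector TAC library 1.

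Of 16 genes of NRF1 control and mitochondrial DNA, 2 fell after TAC in vector hearts, Lrpprc (-0.66 ± 0.15), which stabilizes mitochondrial transcripts, and Twnk (-0.48 ± 0.14), the mitochondrial DNA helicase. None passed with PRODH in TAC hearts, and the list medians were -0.17 and 0.16. Over all genes 4.05% were called lower after TAC. Among genes with a mean of at least 100 normalized reads, 12.3% were called in either direction. Lrpprc was lost without vector sham library 2 or 3 or vector TAC library 2, and Twnk was kept in 3 of the 12 fits that left out 1 library. The count after TAC was 0 without vector sham library 2 or 3 or vector TAC library 2. Without vector TAC library 1 it was 5 in both comparisons, beside 3455 genes of all after TAC and 2754 with PRODH.

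Among 20 partners and coregulators, Rxrg, a retinoid X receptor and thus a partner of the PPARs, and Lpin1, a phosphatase that also coactivates Ppara with PGC-1 alpha, followed the regulators. Rxrg was at 728, 785 and 743 in PRODH TAC, 637, 419 and 421 in vector TAC, 1206, 1052 and 973 in PRODH sham and 813.5, 802 and 826 in vector sham hearts. Rxrg fell by 0.75 and Lpin1 by 0.82 on the log2 scale after TAC in vector hearts (SE 0.15 and 0.13), and both calls held without any single library. With PRODH in TAC hearts both rose, Rxrg by 0.64 ± 0.15 and Lpin1 by 0.53 ± 0.13, and both calls were lost without vector TAC library 2 or 3 or any PRODH TAC library. The list medians, -0.11 and 0.12, lay near those of all genes. Rxrg and Lpin1 were the only 2 of the 20 called, beside 4.05% of all genes called lower after TAC and 2.12% called higher with PRODH. Among genes with a mean of at least 100 normalized reads, 12.3% and 6.6% were called in either direction.

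Of 20 regulators that act upstream, 4 fell after TAC in vector hearts, beside 4.05% of all genes called lower. Klf15 (-1.05 ± 0.20), a factor that promotes cardiac lipid use, Thrb (-0.83 ± 0.16), a thyroid hormone receptor, and Mapk14 (-0.52 ± 0.11), a stress kinase that phosphorylates PGC-1 alpha, kept the call without any single library. Mef2a (-0.50 ± 0.14), a muscle transcription factor that acts on the Ppargc1a gene, kept it in 6 of 12. None of the 20 passed with PRODH in TAC hearts, and the list medians were -0.03 and 0.26. Without vector TAC library 1, Prkaa2 (0.57) and Klf15 (0.59) passed as higher and Hif1a (-0.40) as lower with PRODH, and Nr4a1 (1.25) and Hif1a (0.57) as higher after TAC, of which Prkaa2, Nr4a1 and Hif1a were chosen after their values were seen. That fit called 2754 genes of all with PRODH and 3455 after TAC, against 831 and 1645 with all libraries. With all libraries the limma adjusted p for PRODH was 0.086 for Prkaa2, 0.34 for Klf15 and 0.62 for Hif1a. After TAC it was 0.064 for Nr4a1 and 0.21 for Hif1a. For PRODH against vector in sham hearts, TAC against sham in PRODH hearts and the difference between the responses, none of the 5 lists had a member that passed in limma. In the main comparisons, fits on only the 2 groups compared called no member of any list but the PPAR targets.

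**Figure D5:**
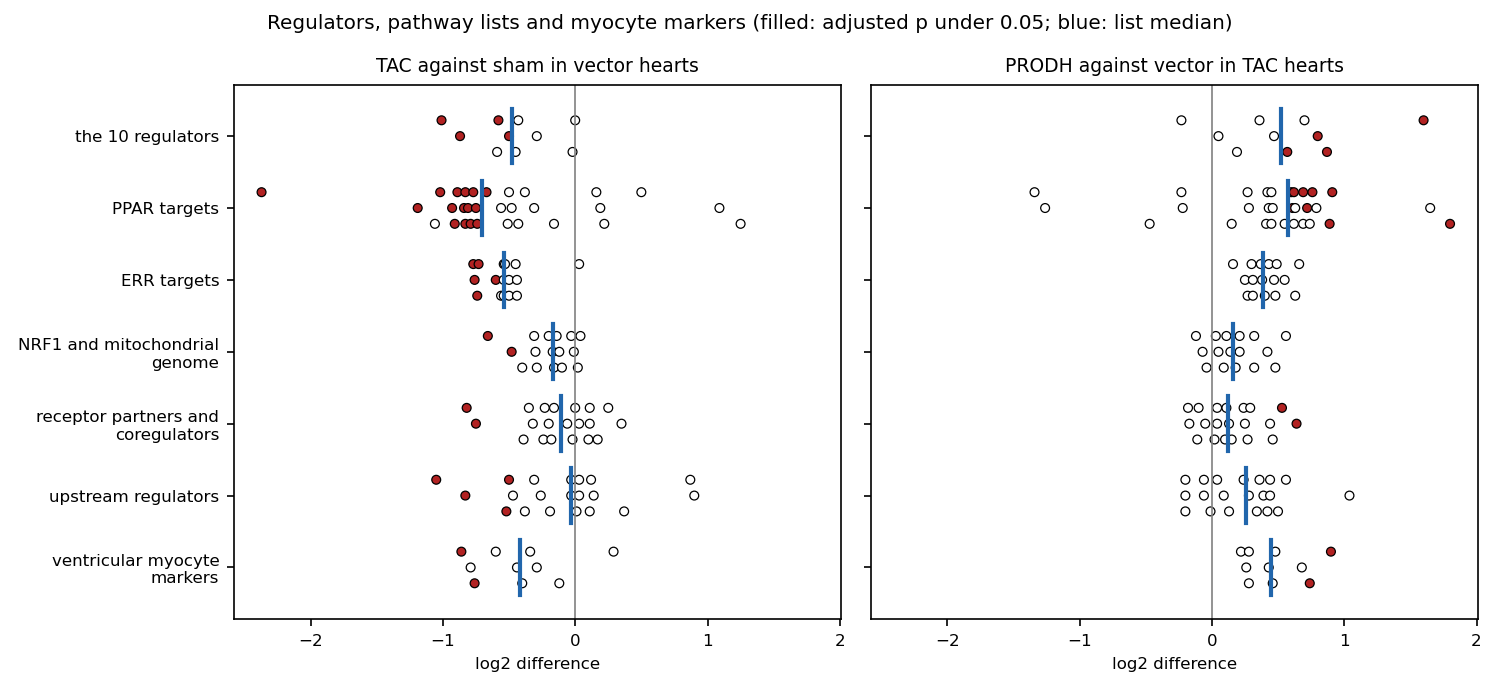
Log2 differences (x axis) of the 10 regulators, 5 pathway lists and the ventricular myocyte markers, 1 point per gene, filled where the limma adjusted p is under 0.05, with the list median as a blue line (n = 3 libraries per group). The PPAR targets have medians of -0.70 for TAC against sham in vector hearts and 0.58 for PRODH against vector in TAC hearts.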

How the data were processed

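Per the labels' protocols, TRIzol RNA was cleared of genomic DNA and sequenced as SMARTER mRNA libraries. The deposited values are a signal per gene, each library's reads over its own size factor, as their steps show: whole reads were recovered for 100% of values within 0.01. The sources used here name no aligner, counting tool or genome build. The design assumed either raw counts (edgeR) or scaled values (limma), and the second was used. Tests were limma 3.58.1 with a trended prior (R 4.3.3) on log2(value + 1), which understates changes of low genes, for the 21173 genes that reached a value of 1 in 3 or more libraries. All 12 libraries entered one fit with 4 group means and 8 residual degrees of freedom, with a Benjamini-Hochberg adjusted p under 0.05 as the threshold. Errors are standard errors of log2 differences, n = 3 per group, unless SD is named. With 3 libraries against 3, an exact permutation test cannot go below p = 0.1. Replicates differed by more than sampling noise (chi-square per degree of freedom 4.63 to 95.44). Exon lengths came from GENCODE M21, in which 24735 gene identifiers were found. The procedure was tested on simulated data.

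Alternatives were pseudocounts of 0.1 and 10, other filters and scalings, edgeR 4.0.16, DESeq2 1.42.0 and voom on recovered reads, fits on 2 groups alone, a block for the replicate number, libraries left out, and removal of a length and GC trend (spline, 5 degrees of freedom each). Their use on the pathway lists was added after seeing the data. The regulators and all lists were chosen with earlier results of these data known. Named genes were the 10 regulators, Prodh, up to 4 called genes per pathway list with the smallest p in each comparison, and the 3 genes most like each called regulator. Pln and Ryr2 were chosen after their values were seen.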

Additional observations from a re-analysis of the deposited data

Results flagged for a closer look

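For Esrrg the TAC libraries lay on opposite sides of the sham libraries under the 2 viruses. All 3 PRODH TAC libraries lay above all 3 PRODH sham libraries (575 to 623 against 521 to 555 normalized reads), while all 3 vector TAC libraries lay below all 3 vector sham libraries (294 to 373 against 448 to 569). A lack of overlap in these directions held for 10.4% and 10% of all genes tested. The log2 difference was 0.15 ± 0.13 in PRODH hearts (limma adjusted p = 0.75), which did not pass, and -0.58 ± 0.13 in vector hearts (limma adjusted p = 0.011). The difference between both responses was 0.72 ± 0.18 on the log2 scale (limma adjusted p = 0.19), which did not pass, and over its alternatives the adjusted p ran from 0.022 to 0.45. It passed with DESeq2 and without vector TAC library 1.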

How the results depend on the processing

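Of 980 alternative values for 38 differences of at least 0.1 in size, 906 kept direction and side of the threshold, 47 lost the call, 22 gained it and 5 changed sign. The sign changes were Ppard for PRODH against vector in TAC hearts, -0.03 without vector TAC library 1, alone or with PRODH sham library 2 (-0.03 to 0.30 with 1 library left out), Perm1 for PRODH against vector in sham hearts, 0.00 with quantile normalization and -0.06 without vector sham library 1 (-0.06 to 0.25), and Ppara for TAC against sham in PRODH hearts, 0.02 without PRODH sham library 1 (-0.28 to 0.02). The 12 smaller differences all changed sign somewhere and never passed. The count of regulators called for TAC against sham in vector hearts (4) was 7 with DESeq2 or with the length and GC trend removed, where 2242 and 2160 genes of all were called against 1645, 0 with only the 2 groups compared and 0 to 6 with 1 library left out. For PRODH against vector in TAC hearts (4) it was 0 with only the 2 groups compared, 7 without both vector TAC library 1 and PRODH sham library 2, and 2 to 7 with 1 library left out. For the difference between the responses (0) it was 1 with DESeq2 and 0 to 1 with 1 library left out. Fewer libraries were fitted in the left-out and 2-group fits; otherwise the cause was not tested. Scalings moved the median of all genes by at most 0.03. Same-numbered vector TAC and vector sham libraries correlated at 0.40, 0.49 and -0.12 for numbers 1, 2 and 3. For numbers 1 and 2 this was the highest match. In the other comparisons the values were -0.11 to 0.12. The numbers were not taken to pair libraries, and a shared batch among vector libraries was not tested. With the replicate block the counts were 4, 4, 0, 0 and 0. Depth was lowest for Ppargc1b in vector TAC, with 61 to 173 reads.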
